A study of Homo sapiens with 12 samples.

Results

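Levels of 9 genes of the p53 pathway were followed across 12 RNA sequencing libraries: MDM2, MDM4, PPM1D, GADD45A, TP53INP1, ZMAT3, RRM2B, XPC and FDXR. They were chosen by symbol for their known place among the regulators and non-apoptotic targets of p53. The choice was made with earlier results of these data known, so counts over the 9 genes are descriptions, not a test of the pathway. Each symbol matched 1 row, so the 9 genes are 9 of the 61466 genes in the authors' table, and all 9 passed the filter on low values described below. The gene that encodes p53 is not among them.

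The libraries came from 2 established human lines of diffuse large B cell lymphoma, SU-DHL-8 and Farage. Cells were kept for 12 h with vehicle (the control groups) or with morusinol, a prenylated flavonoid of mulberry, and each of the 4 groups has 3 libraries. The labels give the control libraries the genotype WT and no genetic change for the others, name lymph node as the tissue, and give no dose. Nothing in the labels says whether the 3 libraries of a group came from separate cultures, so the p-values below measure the spread between these libraries, which may be technical.

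p53 is a transcription factor that is held at a low level by the ubiquitin ligase MDM2 and restrained by the related protein MDM4, and MDM2 is itself a p53 target, which closes a feedback loop. When p53 is active it can induce one set of genes that arrests the cell cycle, repairs DNA, keeps up deoxynucleotide supply and limits oxidative stress, and another that promotes apoptosis. The p53 gene is often mutated in diffuse large B cell lymphoma. Several genes counted as p53 targets, GADD45A and TNFRSF10B among them, are also known to be induced by other stress-responsive transcription factors.

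Values are FPKM, a number of fragments divided by gene length and by sequencing depth, so comparisons between genes rest on the gene lengths that were used. The depth estimated from the table ran from 6.05 to 15.2 M (mega) fragments over the SU-DHL-8 libraries, lowest in morusinol replicate 2, and from 9.37 to 18.96 M over those of Farage. A value of the 9 genes rested on a median of 390 estimated fragments, and the lowest, TP53INP1 in SU-DHL-8 control replicate 2, on 48.3. Only for MDM4 and FDXR did the estimates fall on multiples of 0.5 fragments in all libraries, so those of the other genes are approximate. All 6 B lymphocyte markers examined were above 0 in the 4 groups. The 6 had a summed FPKM of 353.9 to 367.8 in SU-DHL-8 control and 230.1 to 238.0 with morusinol, and of 966 to 1021 in Farage control and 613 to 660 with morusinol. Summed FPKM was at most 6.10 for 10 T and NK lymphocyte markers, at most 1.92 for 8 myeloid markers and at most 2.23 for 10 fibroblast, endothelial and epithelial markers in any library. The markers did not move together: in SU-DHL-8 4 of the 6 were called lower and 2 higher, and the sum fell mainly through CD79A (mean FPKM 175 to 43.0), while in Farage 5 were lower and 1 was not called. The part of these changes in the results below was not tested. In such bulk libraries, fewer cells that express a gene and less of its RNA per cell cannot be told apart.

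In each line 6 of the 9 genes were higher with morusinol, led by TP53INP1 in SU-DHL-8 and GADD45A in Farage. Differences are log2 fold changes of FPKM + 1 with their standard error from limma, and called means a Benjamini-Hochberg adjusted p under 0.05 across all 17574 genes tested. In SU-DHL-8, 6 of the 9 genes were called higher and 0 lower, where 46.8% of all genes tested were called (25.1% higher and 21.6% lower). In Farage, 6 of the 9 were called higher and 0 lower, against 43.1% of all genes called (21.9% higher and 21.2% lower). Control and treated libraries did not overlap for 7 of the 9 genes in SU-DHL-8 and for 6 in Farage, beside 54.1% and 51% of all genes tested. The median log2 fold change of the 9 genes was 0.57 in SU-DHL-8 and 0.41 in Farage, beside 0.02 and -0.03 over all genes tested. The 5 genes called in both lines were MDM2, MDM4, GADD45A, TP53INP1 and XPC. ZMAT3 was called in SU-DHL-8 and PPM1D in Farage, and RRM2B and FDXR were called in neither line.

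**Figure D1:**
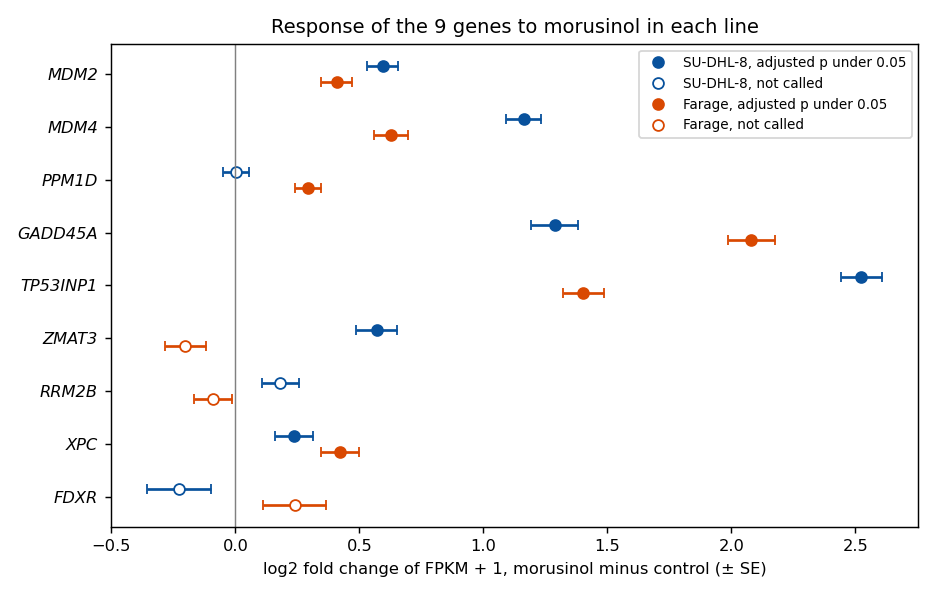
Log2 fold change of FPKM + 1 with morusinol (x axis, bars ± SE) for each of the 9 genes (rows), in SU-DHL-8 (blue) and Farage (orange); filled points have an adjusted p under 0.05. TP53INP1 in SU-DHL-8 (2.52) and GADD45A in Farage (2.08) lie farthest to the right.

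MDM2 encodes the ubiquitin ligase that marks p53 for degradation (ENSG00000135679, GRCh38 chr12:68808176-68850686, plus strand, protein coding in GENCODE release 29). Its FPKM was 15.4, 14.4 and 15.3 in SU-DHL-8 control and 22.5, 23.2 and 23.9 with morusinol. Farage control libraries had 20.6, 21.1 and 19.7 FPKM and the treated ones 24.8, 27.6 and 30.2. No treated library overlapped the control libraries of its line, and the highest value of all was Farage morusinol replicate 3. MDM2 rose by 0.59 ± 0.0629 in SU-DHL-8 (limma adjusted p = 2.07e-05) and by 0.41 ± 0.0629 in Farage (limma adjusted p = 0.000402), which are ratios of group means of 1.54 and 1.35. Exons of MDM2 overlap those of CPM, a carboxypeptidase gene on the opposite strand, with a strand of counting not given in the sources used here. They also overlap those of AC025423.4 on the opposite strand and of the pseudogene AC025423.2 on the same strand, whose part was not tested. CPM had a mean FPKM of 0.0404 in SU-DHL-8 control, 0.107 in SU-DHL-8 morusinol, and 12.9 and 9.70 in Farage control and morusinol, and its part in the MDM2 values was not tested.

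MDM4 encodes the MDM2 relative that binds p53 and blocks its activity as a transcription factor (ENSG00000198625, GRCh38 chr1:204516379-204558120, plus strand, protein coding). Its FPKM was 17.1, 17.1 and 17.4 in SU-DHL-8 control and 38.6, 40.4 and 40.0 with morusinol. The Farage values were 11.6, 13.7 and 11.3 in control and 18.96, 18.2 and 21.0 with morusinol. The treated SU-DHL-8 libraries stood above all 9 others. The rise was 1.16 ± 0.0690 in SU-DHL-8 (limma adjusted p = 2.75e-07), a 2.31-fold change of the mean, and 0.63 ± 0.0690 in Farage (limma adjusted p = 3.67e-05), a 1.59-fold change. The response in Farage was smaller than that in SU-DHL-8 by a tested difference of -0.53 ± 0.0976 (limma adjusted p = 0.00188).

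MDM2 and MDM4 act together on p53, and their sequences upstream of the transcript start are shown because MDM2 is known to have a second, p53-responsive promoter in its first intron, and the MDM4 window was searched for the same element. The windows are RefSeq sequence (GRCh38.p14, plus strand, bases 250 to 51 before a transcript start, written 5′ to 3′). They are chr12:68807922-68808121 before the first MDM2 start, chr12:68808767-68808966 before the second MDM2 start and chr1:204516156-204516355 before the MDM4 start. Capitals mark the match to the p53 element.
MDM2 first start: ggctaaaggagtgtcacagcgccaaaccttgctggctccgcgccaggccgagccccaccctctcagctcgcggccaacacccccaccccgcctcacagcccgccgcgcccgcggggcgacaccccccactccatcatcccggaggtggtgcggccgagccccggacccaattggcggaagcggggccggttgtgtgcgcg
MDM2 second start: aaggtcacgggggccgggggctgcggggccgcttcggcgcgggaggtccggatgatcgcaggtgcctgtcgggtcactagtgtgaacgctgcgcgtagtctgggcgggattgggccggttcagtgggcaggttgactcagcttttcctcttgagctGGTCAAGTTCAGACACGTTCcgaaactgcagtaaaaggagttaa
MDM4 start: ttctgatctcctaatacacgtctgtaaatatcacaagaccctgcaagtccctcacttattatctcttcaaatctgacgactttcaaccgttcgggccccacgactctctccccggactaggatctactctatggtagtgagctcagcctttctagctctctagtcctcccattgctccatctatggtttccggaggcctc
The element searched, on both strands, was 2 adjoining 10-base sites of the p53 consensus with the core C and G kept in each and at most 2 mismatches over the 20 bases. The match before the second MDM2 start, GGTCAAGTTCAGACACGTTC, has 2 mismatches and lies 94 to 75 bases before that start. The element was found in 62 of 35116 RefSeq windows of this length (0.177%). Windows were present for 6 of the 9 genes (MDM2, MDM4, ZMAT3, XPC, FDXR and PPM1D, 11 windows), and among these the element was matched only before the second MDM2 start, in 2 windows that overlap. No window of the 6 genes held TGATGNAA or CACGTG, which 2.50% and 4.51% of all windows hold. A gene-level FPKM does not separate transcripts from the first and the second MDM2 start, and a match or its absence is a description of these letters.

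The ratio of MDM4 to MDM2 within a library was higher in SU-DHL-8 than in Farage, and higher with morusinol than without in each line. It was 1.11, 1.19 and 1.13 in SU-DHL-8 control and 1.72, 1.74 and 1.68 with morusinol. Without treatment Farage had ratios of 0.564, 0.651 and 0.575, and with morusinol 0.763, 0.660 and 0.694. In FPKM, which rests on the gene lengths used, MDM4 was therefore above MDM2 in all SU-DHL-8 libraries and below it in all Farage libraries. The mean ratio was 1.14 ± 0.04004 (SD, n = 3) and 1.71 ± 0.0325 without and with morusinol in SU-DHL-8, and 0.597 ± 0.0477 and 0.706 ± 0.0524 in Farage. The ratios were not tested apart from the fold changes above.

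PPM1D encodes WIP1, a phosphatase that removes activating phosphates from p53 and the kinases that act on it, and it is a p53 target (ENSG00000170836, GRCh38 chr17:60600183-60666280, plus strand, protein coding). Its FPKM was 4.62, 4.15 and 4.51 in SU-DHL-8 control and 4.38, 4.44 and 4.49 with morusinol, so the groups overlapped. For Farage, the control values were 3.62, 3.73 and 3.37 and the treated values 4.51, 4.47 and 4.82, with no overlap. The difference in SU-DHL-8 was 0.00 ± 0.0524 (limma adjusted p = 0.991), and the interval of 2 standard errors ran from -0.10 to 0.11. In Farage PPM1D rose by 0.29 ± 0.0524 (limma adjusted p = 0.00106), a 1.29-fold change. The difference between the 2 responses was itself called, at 0.29 ± 0.0741 (limma adjusted p = 0.012), and was 0.44 after rescaling to TPM.

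**Figure D2:**
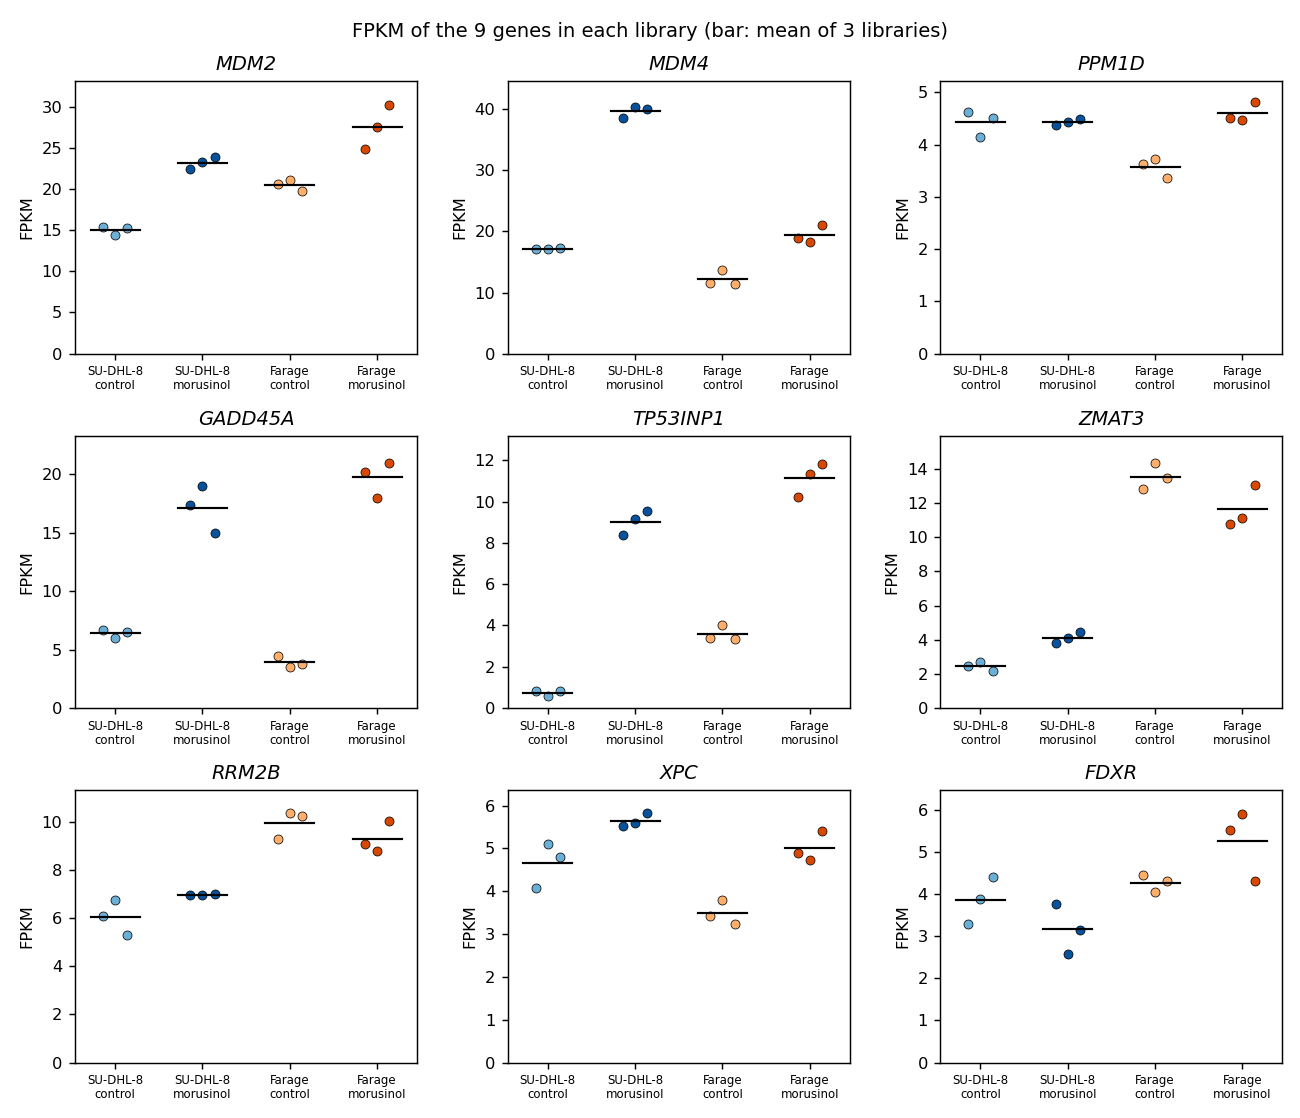
FPKM (y axis, linear, from 0) of each of the 9 genes in each of the 12 libraries; points are libraries, in replicate order within a group, and bars are group means. In the MDM4 panel the SU-DHL-8 morusinol libraries sit between 38.6 and 40.4, above all others, and in the ZMAT3 panel the 6 Farage libraries sit between 10.8 and 14.3, above all SU-DHL-8 libraries.

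GADD45A encodes a small stress protein that binds PCNA and cell cycle kinases and takes part in growth arrest and DNA repair (ENSG00000116717, GRCh38 chr1:67685061-67688338, plus strand, protein coding). Its FPKM was 6.68, 5.999 and 6.48 in SU-DHL-8 control and 17.4, 18.96 and 14.98 with morusinol. Farage control libraries had 4.44, 3.54 and 3.74 FPKM and the treated ones 20.2, 17.97 and 21.0. The 2 lines thus started at separate levels and overlapped after treatment. GADD45A rose by 1.29 ± 0.0946 in SU-DHL-8 (limma adjusted p = 1.31e-06), 2.68-fold in group means, and by 2.08 ± 0.0946 in Farage (limma adjusted p = 6.15e-08), 5.05-fold. The rise was larger in Farage by 0.79 ± 0.134 (limma adjusted p = 0.00117). Ranked by fold change among the 17574 genes tested, GADD45A was number 422 from the top in SU-DHL-8 and number 45 in Farage.

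Both relatives of GADD45A were higher with morusinol in Farage. GADD45B had mean FPKM of 11.9 and 18.6 without and with morusinol in SU-DHL-8 (0.61 ± 0.0545, limma adjusted p = 6.05e-06) and of 52.7 and 89.6 in Farage (0.76 ± 0.0545, limma adjusted p = 1.68e-06). GADD45G was near 0 in SU-DHL-8, at 0.153 and 0.304, and rose from 7.69 to 13.6 in Farage (0.75 ± 0.113, limma adjusted p = 0.000335). The ratio of GADD45A to GADD45B was 0.539 ± 0.0328 (SD, n = 3) in SU-DHL-8 control and 0.918 ± 0.0573 with morusinol, and 0.0741 ± 0.00778 in Farage control and 0.220 ± 0.0233 with morusinol. GADD45A thus had the lower FPKM of the pair in every library, and was closest to GADD45B in treated SU-DHL-8.

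TP53INP1 encodes a p53-induced nuclear protein that also works in autophagy (ENSG00000164938, GRCh38 chr8:94925972-94949411, minus strand, protein coding), and it had the largest fold change of the 9 genes in SU-DHL-8. Its FPKM was 0.814, 0.599 and 0.821 in SU-DHL-8 control and 8.40, 9.13 and 9.54 with morusinol. The Farage values were 3.41, 4.04 and 3.32 in control and 10.2, 11.4 and 11.8 with morusinol. No groups overlapped. The SU-DHL-8 control values rest on 70.4, 48.3 and 68.9 estimated fragments. TP53INP1 rose by 2.52 ± 0.0829 in SU-DHL-8 (limma adjusted p = 4.89e-09), a 12.1-fold change in group means, and by 1.40 ± 0.0829 in Farage (limma adjusted p = 4.36e-07), a 3.10-fold change. It ranked number 34 of the 17574 genes tested in SU-DHL-8 and number 183 in Farage. The response in Farage was smaller by a difference of -1.12 ± 0.117 (limma adjusted p = 5.07e-05), which was -1.83 with a pseudocount of 0.1 (the SU-DHL-8 control values are under 1 FPKM). Its paralogue TP53INP2 had mean FPKM of 3.52 and 4.795 in SU-DHL-8 and 0.615 and 1.59 in Farage. The Farage rise of TP53INP2 was 0.68 ± 0.121 (limma adjusted p = 0.00106) and 1.26 with a pseudocount of 0.1, and the SU-DHL-8 difference of 0.36 ± 0.121 (limma adjusted p = 0.0311) was not called without SU-DHL-8 control replicate 2 (0.31, limma adjusted p = 0.106), control replicate 3 (0.35, adjusted p = 0.0814), morusinol replicate 1 (0.36, adjusted p = 0.0745) or morusinol replicate 3 (0.34, adjusted p = 0.0892). The call was also lost with no filter (limma adjusted p = 0.0722), a pseudocount of 0.1 (0.44, adjusted p = 0.123), quantile normalization (0.22, adjusted p = 0.129), rescaling to TPM (0.31, adjusted p = 0.207) and the replicate block (adjusted p = 0.0589).

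ZMAT3 encodes an RNA-binding zinc finger protein induced by p53 (ENSG00000172667, GRCh38 chr3:179017223-179072279, minus strand, protein coding). Its FPKM was 2.45, 2.72 and 2.18 in SU-DHL-8 control and 3.80, 4.09 and 4.45 with morusinol. Without treatment Farage had an FPKM of 12.8, 14.3 and 13.4, and with morusinol 10.8, 11.2 and 13.1. All Farage libraries were above all SU-DHL-8 libraries, and in Farage only replicate 3 of morusinol reached into the control range. ZMAT3 rose by 0.57 ± 0.0833 in SU-DHL-8 (limma adjusted p = 0.00022), a 1.68-fold change. In Farage the difference was -0.20 ± 0.0833 (limma adjusted p = 0.0755), and without Farage morusinol replicate 3 it was -0.28 and was called (limma adjusted p = 0.019). The responses of the 2 lines differed by -0.77 ± 0.118 (limma adjusted p = 0.000623). The related gene ZMAT1 rose from a mean FPKM of 1.36 to 5.08 in SU-DHL-8 (1.37 ± 0.0919, limma adjusted p = 6.58e-07) and was at 0.157 and 0.219 in Farage control and morusinol.

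RRM2B encodes p53R2, the p53-inducible small subunit of ribonucleotide reductase, which makes deoxynucleotides outside S phase (ENSG00000048392, GRCh38 chr8:102204502-102239118, minus strand, protein coding). Its FPKM was 6.06, 6.76 and 5.31 in SU-DHL-8 control and 6.95, 6.95 and 6.98 with morusinol. For Farage, the control values were 9.29, 10.4 and 10.2 and the treated values 9.05, 8.79 and 10.03. The treated SU-DHL-8 libraries lay above their controls by a narrow margin, and the Farage groups overlapped. The difference was 0.18 ± 0.0753 in SU-DHL-8 (limma adjusted p = 0.0738), with an interval of 2 standard errors from 0.03 to 0.33. It was called without SU-DHL-8 control replicate 2 (0.25, limma adjusted p = 0.0166). In Farage it was -0.09 ± 0.0753 (limma adjusted p = 0.373), with an interval from -0.24 to 0.06.

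The other ribonucleotide reductase subunits fell. RRM2, the S phase small subunit that RRM2B can replace, fell from a mean FPKM of 65.5 to 22.1 in SU-DHL-8 (-1.53 ± 0.0362, limma adjusted p = 5.95e-10) and from 31.0 to 22.7 in Farage (-0.43 ± 0.0362, limma adjusted p = 4.81e-06). RRM1, the large subunit, fell from 71.9 to 29.5 in SU-DHL-8 (-1.26 ± 0.0556, limma adjusted p = 3.23e-08) and from 53.5 to 37.4 in Farage (-0.50 ± 0.0556, limma adjusted p = 3.73e-05). The ratio of RRM2B to RRM2 was therefore higher with treatment, at 0.0945, 0.1004 and 0.0818 in SU-DHL-8 control and 0.310, 0.324 and 0.311 with morusinol. The Farage ratios were 0.290, 0.343 and 0.332 in control and 0.403, 0.376 and 0.449 with morusinol. Treated SU-DHL-8 reached the range of untreated Farage, and RRM2 kept a higher FPKM than RRM2B in all libraries.

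**Figure D3:**
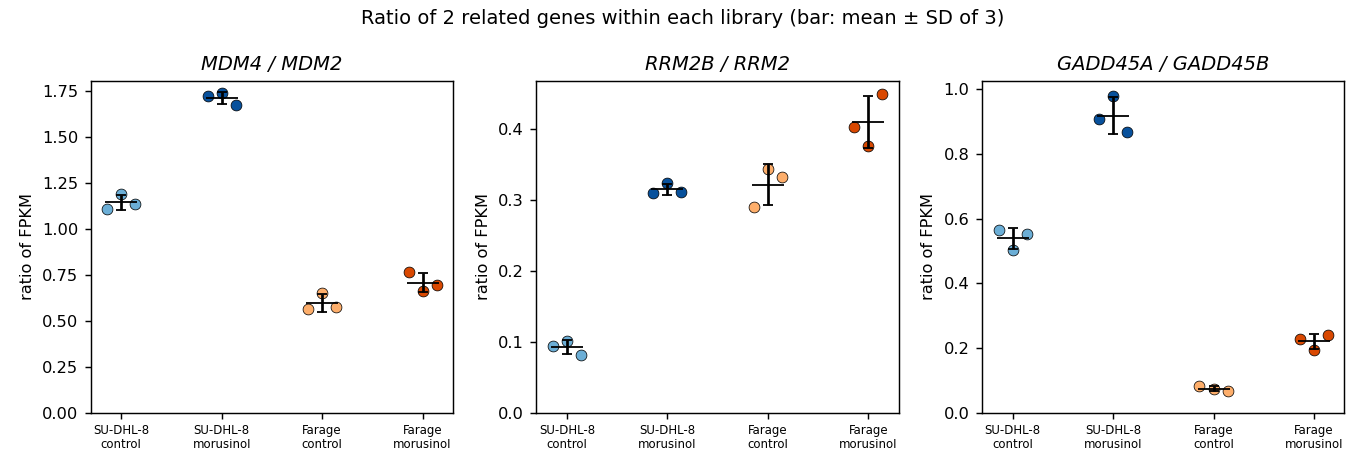
Ratio of FPKM within each library (y axis, linear, from 0) for MDM4 to MDM2, RRM2B to RRM2 and GADD45A to GADD45B; points are libraries and bars the mean ± SD of 3. The MDM4 to MDM2 ratio is above 1 in the 6 SU-DHL-8 libraries and below 1 in the 6 Farage libraries.

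XPC encodes the damage sensor of global genome nucleotide excision repair (ENSG00000154767, GRCh38 chr3:14145147-14178783, minus strand, protein coding). Its FPKM was 4.08, 5.10 and 4.79 in SU-DHL-8 control and 5.52, 5.59 and 5.84 with morusinol. The Farage values were 3.42, 3.80 and 3.24 in control and 4.89, 4.73 and 5.41 with morusinol. Neither line had an overlap between control and treated libraries. XPC rose by 0.42 ± 0.0766 in Farage (limma adjusted p = 0.00119), a 1.44-fold change. The rise of 0.24 ± 0.0766 in SU-DHL-8 (limma adjusted p = 0.0263), 1.21-fold, was less stable: it was not called without SU-DHL-8 control replicate 1 (0.16, limma adjusted p = 0.102), morusinol replicate 2 (0.24, adjusted p = 0.0548) or morusinol replicate 3 (0.22, adjusted p = 0.08), nor after quantile normalization (0.13, adjusted p = 0.16), after rescaling to TPM (0.17, adjusted p = 0.285) or with no filter (0.24, adjusted p = 0.0679). Exons of XPC overlap those of LSM3, AC090004.1 and AC093495.1, all on the opposite strand. The mean FPKM of LSM3 was 23.7 and 11.0 without and with morusinol in SU-DHL-8, and 22.8 and 9.39 in Farage. LSM3 was thus lower and XPC higher in treated libraries, and what part fragments of these overlapping genes have in the XPC values was not tested.

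RAD23B and DDB2 work with XPC in finding DNA damage. RAD23B, which stabilizes XPC, fell in SU-DHL-8 from a mean FPKM of 50.5 to 36.8 (-0.45 ± 0.0550, limma adjusted p = 5.89e-05, and -0.28 after quantile normalization) and was at 48.1 and 50.2 in Farage control and morusinol. DDB2, a p53 target that hands ultraviolet lesions to XPC, fell in SU-DHL-8 from 6.01 to 4.87 (-0.26 ± 0.0609, limma adjusted p = 0.00514) and rose in Farage from 18.9 to 22.4 (0.24 ± 0.0609, limma adjusted p = 0.00985). The Farage response of DDB2 was above its SU-DHL-8 response by 0.49 ± 0.0862 (limma adjusted p = 0.00144).

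FDXR encodes ferredoxin reductase, a mitochondrial enzyme that passes electrons for steroid and iron-sulphur cluster synthesis and is a p53 target (ENSG00000161513, GRCh38 chr17:74862497-74873031, minus strand, protein coding). Its FPKM was 3.29, 3.89 and 4.41 in SU-DHL-8 control and 3.78, 2.57 and 3.16 with morusinol. Without treatment Farage had an FPKM of 4.46, 4.04 and 4.31, and with morusinol 5.53, 5.90 and 4.32. Control and treated libraries overlapped in both lines. The difference was -0.23 ± 0.129 in SU-DHL-8 (limma adjusted p = 0.186; interval of 2 standard errors from -0.48 to 0.03) and 0.24 ± 0.129 in Farage (limma adjusted p = 0.17; interval from -0.02 to 0.50). The standard error of FDXR was the largest of the 9 genes.

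The lines differed before treatment in 8 of the 9 genes. Between the control groups, 4 of the 9 genes were higher in Farage and 4 lower, where 64.1% of all genes tested were called, 34.5% higher and 29.6% lower. The 3 values of a line did not overlap those of the other for 8 of the 9 genes, and for 69.5% of all genes. ZMAT3 had the largest difference, 2.08 ± 0.0833 (limma adjusted p = 3.63e-09), with a mean FPKM of 13.5 in Farage and 2.45 in SU-DHL-8. TP53INP1 (1.39 ± 0.0829, limma adjusted p = 8.68e-08), RRM2B (0.64 ± 0.0753, limma adjusted p = 2.26e-05) and MDM2 (0.42 ± 0.0629, limma adjusted p = 0.000146) were also higher in Farage. GADD45A (-0.59 ± 0.0946, limma adjusted p = 0.000234), MDM4 (-0.46 ± 0.0690, limma adjusted p = 0.000139), XPC (-0.33 ± 0.0766, limma adjusted p = 0.00298) and PPM1D (-0.25 ± 0.0524, limma adjusted p = 0.00172) were lower in Farage. FDXR differed by 0.12 ± 0.129 (limma adjusted p = 0.435), with an interval of 2 standard errors from -0.14 to 0.38.

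After morusinol, 5 of the 9 genes were higher in Farage than in SU-DHL-8 and 1 was lower, where 65.1% of all genes tested were called, 33% higher and 32.1% lower. The lines did not overlap for 7 of the 9 genes, and for 67.2% of all genes. MDM4 was the gene that was lower, by -0.999 ± 0.0690 (limma adjusted p = 2.85e-07), a larger gap than between the controls. ZMAT3 remained higher in Farage (1.31 ± 0.0833, limma adjusted p = 1.48e-07), as did RRM2B (0.37 ± 0.0753, limma adjusted p = 0.00131) and MDM2 (0.23 ± 0.0629, limma adjusted p = 0.00709). FDXR was higher by 0.59 ± 0.129 (limma adjusted p = 0.0021), and its 3 Farage values were above the 3 SU-DHL-8 values. The TP53INP1 difference was 0.27 ± 0.0829 (limma adjusted p = 0.0135), and it was not called without Farage morusinol replicate 3 (0.23, limma adjusted p = 0.052), without SU-DHL-8 morusinol replicate 1 (0.23, limma adjusted p = 0.0545) or with a pseudocount of 0.1 (0.30, limma adjusted p = 0.0503). GADD45A differed by 0.20 ± 0.0946 (limma adjusted p = 0.0901), and was called without Farage morusinol replicate 2 (0.26, limma adjusted p = 0.0492) or SU-DHL-8 morusinol replicate 2 (0.27, limma adjusted p = 0.0341). XPC differed by -0.15 ± 0.0766 (limma adjusted p = 0.116) and PPM1D by 0.04 ± 0.0524 (limma adjusted p = 0.501). Scaling moves these comparisons of lines: over the same 17574 genes, rescaling to TPM shifted the median by 0.10 between controls and 0.19 between treated groups, and quantile normalization by -0.19 and -0.10. After rescaling to TPM the differences between treated groups were 0.46 for MDM2, 0.60 for RRM2B and 0.50 for TP53INP1. Between controls, quantile normalization gave -0.53 for XPC and -0.46 for PPM1D, and a pseudocount of 0.1 gave 2.13 for TP53INP1. MDM2 was not called higher in treated Farage after quantile normalization (0.16, limma adjusted p = 0.0648). GADD45A (0.42, limma adjusted p = 0.00893) and PPM1D (0.25, limma adjusted p = 0.00931) were called higher there after rescaling to TPM, and XPC was called lower after quantile normalization (-0.23, limma adjusted p = 0.0117).

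Taking the 4 groups together, the order of mean FPKM was the same for MDM2 and TP53INP1: SU-DHL-8 control, Farage control, SU-DHL-8 morusinol, Farage morusinol, with no neighbours overlapping. MDM4 ran from Farage control through SU-DHL-8 control and Farage morusinol to SU-DHL-8 morusinol, again with no overlap. For GADD45A the treated groups overlapped at the top, and for ZMAT3 and RRM2B the 2 Farage groups did. For XPC, SU-DHL-8 control overlapped Farage morusinol. The PPM1D groups overlapped except for Farage control, which lay below the others, and all FDXR neighbours overlapped.

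The responses of the 2 lines were compared directly, with that of SU-DHL-8 subtracted from that of Farage. Of the 9 genes, 2 were called with a higher response in Farage (GADD45A and PPM1D) and 3 with a lower one (TP53INP1, ZMAT3 and MDM4), where 34.9% of all genes tested were called, 17.3% with a higher response in Farage and 17.6% with a lower one. The other 4 were not called: MDM2 (-0.19 ± 0.0890, limma adjusted p = 0.136), RRM2B (-0.27 ± 0.107, limma adjusted p = 0.0729), FDXR (0.46 ± 0.182, limma adjusted p = 0.0731) and XPC (0.18 ± 0.108, limma adjusted p = 0.221). Leaving out Farage morusinol replicate 3 raised the number called to 8, since MDM2 (-0.25, limma adjusted p = 0.0247), RRM2B (-0.32, limma adjusted p = 0.0433) and FDXR (0.58, limma adjusted p = 0.0271) were then called. RRM2B was also called without SU-DHL-8 control replicate 2 (-0.34, limma adjusted p = 0.0221). FDXR was called without SU-DHL-8 control replicate 1 (0.55, limma adjusted p = 0.0486), without SU-DHL-8 morusinol replicate 1 (0.57, limma adjusted p = 0.0341) and after quantile normalization (0.59, limma adjusted p = 0.0425), where XPC was called as well (0.30, limma adjusted p = 0.0376).

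The rest of the pathway moved in both directions, as did all genes tested. Of these, 25.1% were called higher and 21.6% lower in SU-DHL-8, and 21.9% and 21.2% in Farage. The same shares stand beside the list counts of the next paragraphs. Of 19 upstream regulators of p53 tested, 8 were higher, 5 lower and 6 not called in SU-DHL-8 (median log2 fold change 0.11), and the counts were 8, 5 and 6 in Farage (median 0.14). ATM, the kinase that signals DNA breaks to p53, rose from a mean FPKM of 6.71 to 12.96 in SU-DHL-8 (0.86 ± 0.0624, limma adjusted p = 1.24e-06) and from 12.5 to 16.1 in Farage (0.34 ± 0.0624, limma adjusted p = 0.00124). CHEK2, the kinase downstream of ATM, fell from 12.4 to 6.43 in SU-DHL-8 (-0.84 ± 0.0821, limma adjusted p = 1.08e-05) and was at 3.23 and 3.70 in Farage. In Farage the kinase gene HIPK2 rose from 3.23 to 7.23 (0.96 ± 0.0891, limma adjusted p = 9.91e-06). SIRT1, which encodes a p53 deacetylase, rose there from 13.7 to 21.1 (0.59 ± 0.0759, limma adjusted p = 0.000116). HIPK2 was listed at 0 in 5 of the 6 SU-DHL-8 libraries.

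Among the other non-apoptotic targets, 16 of 20 were tested. In SU-DHL-8, 6 were higher, 5 lower and 5 not called (median 0.01), and in Farage 7 were higher, 3 lower and 6 not called (median 0.20). SESN2, which encodes a restraint on mTORC1, rose from a mean FPKM of 7.42 to 34.8 in SU-DHL-8 (2.10 ± 0.0756, limma adjusted p = 8.82e-09) and from 6.69 to 90.4 in Farage (3.57 ± 0.0756, limma adjusted p = 4.3e-10). DRAM1, an autophagy gene, rose from 0.944 to 3.85 in SU-DHL-8 (1.32 ± 0.0917, limma adjusted p = 8.35e-07). In Farage DRAM1 went from 1.09 to 1.65 (0.34 ± 0.0917, limma adjusted p = 0.012; 0.55 with a pseudocount of 0.1, and an adjusted p of 0.0778 when only the Farage libraries were fitted). NINJ1, whose protein ruptures the plasma membrane late in cell death, fell from 21.4 to 14.1 in SU-DHL-8 (-0.57 ± 0.0578, limma adjusted p = 1.48e-05) and rose from 7.57 to 20.7 in Farage (1.34 ± 0.0578, limma adjusted p = 4.42e-08). CDKN1A, the p21 gene and the best known arrest target, is named here after its values were seen. It fell from 6.74 to 4.04 in SU-DHL-8 (-0.64 ± 0.122, limma adjusted p = 0.00145) and was at 11.9 and 11.0 in Farage (-0.11 ± 0.122, limma adjusted p = 0.541).

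Of the apoptotic targets, 10 of 12 were tested. In SU-DHL-8, 5 were higher and 5 lower (median 0.19), and in Farage 5 were higher, 2 lower and 3 not called (median 0.22). TNFRSF10B, a death receptor gene, rose from a mean FPKM of 10.1 to 38.5 in SU-DHL-8 (1.83 ± 0.0467, limma adjusted p = 1.02e-09) and from 16.6 to 36.5 in Farage (1.09 ± 0.0467, limma adjusted p = 4.14e-08). BBC3, which encodes PUMA, rose from 1.10 to 5.99 in SU-DHL-8 (1.74 ± 0.0983, limma adjusted p = 1.88e-07) and from 1.32 to 12.4 in Farage (2.52 ± 0.0983, limma adjusted p = 2.1e-08). Partners and paralogues of the 9 genes gave 6 higher, 7 lower and 8 not called of 21 tested in SU-DHL-8 (median 0.07), and 5, 5 and 11 in Farage (median 0.04). All 9 genes of the ATF4 and CHOP stress axis, a list that shares SESN2 with the non-apoptotic targets, were higher in both lines, with medians of 2.02 and 2.52. Of all genes tested, 25.1% were called higher in SU-DHL-8 and 21.9% in Farage. The list was written with earlier results of these data known, so its count is a description only. The part of that axis in the responses of the 9 p53 pathway genes was not tested.

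**Figure D4:**
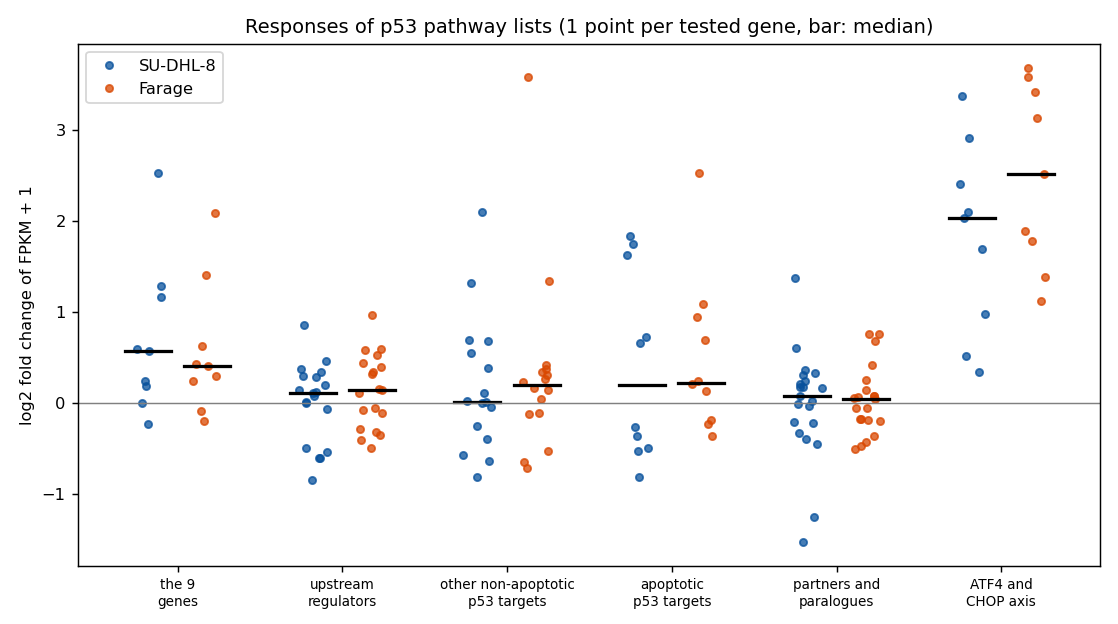
Log2 fold change of FPKM + 1 with morusinol (y axis) for each tested gene of 6 lists (x axis) in SU-DHL-8 (blue) and Farage (orange); points are genes, spread sideways for visibility, and bars are list medians. The medians of the 9 genes are 0.57 and 0.41, and those of the ATF4 and CHOP axis 2.02 and 2.52. All lists but the ATF4 and CHOP axis spread to both sides of 0. The lists were written with earlier results of these data known.

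Across the 12 libraries, the genes whose log2 levels were most like those of each of the 9 were found among genes with a group mean of at least 5 FPKM. These correlations are descriptions over libraries that share 4 groups, so a difference between groups alone can give a high value. MDM2 was most like TTC17 (Pearson r = 0.989) and OGT (0.983). For MDM4 the most alike were JMJD1C (0.995) and COG3 (0.993), for GADD45A KIF21B (0.994), and for TP53INP1 ARFGAP3 (0.995) and MBNL2 (0.992). ZMAT3 was most like RABGAP1L (0.996) and ZFAND4 (0.994), and PPM1D most like SUN1 (0.958) and HP1BP3 (0.955). RRM2B was most like SLC25A46 (0.997), XPC most like DCTN4 (0.956) and RANBP9 (0.947), and FDXR most like C19orf48 (0.922) and CPTP (0.918). Among the 9 genes themselves, the highest values were between ZMAT3 and RRM2B (0.976) and between MDM2 and TP53INP1 (0.968), and the lowest was between MDM4 and FDXR (-0.558).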

How the data were processed

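The authors deposited 1 table of FPKM, with 1 column for each of the 12 libraries; columns marked n were taken as control. Total RNA had been turned into libraries with a SMARTer mRNA kit, per the labels' protocols. The aligner, the counting program and the counted strand were not given in the sources used here. Per the submitters' processing notes the builds are GRCm38 and mm10, both mouse, yet the gene identifiers are human, and 94.8% match GENCODE release 29 (GRCh38), used here for positions. Depth was estimated from the steps in FPKM times exon length (50.9% to 52.9% of low values whole within 0.02 fragments), so no counting interval is given.

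The filter kept 17574 genes that reached 1 FPKM in 3 or more libraries. log2(FPKM + 1), a scale that understates changes of low genes, was fitted with limma 3.58.1 (R 4.3.3, 1 mean per group, intensity trend, robust prior, two-sided, Benjamini-Hochberg). The code was tested on simulated data. Named genes are the 9, their partners and paralogues, the 2 most correlated genes for each (for RRM2B the second, a small RNA gene, is not named) and, per list and line, the 2 called genes that changed most, with a group mean of at least 1 FPKM and no overlap. The 9 genes and the lists were chosen with earlier results of these data known. Some genes that these rules would name are not reported here. Alternatives were a pseudocount of 0.1, no filter, a filter of 5 FPKM, TPM rescaling, quantile normalization, a replicate block, fits of the compared groups alone and leaving out each library. Tables used pandas 2.3.3 and numpy 2.4.6 in Python 3.11.15, and plots matplotlib 3.10.9.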

Additional observations from a re-analysis of the deposited data

Results flagged for a closer look

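For 5 of the 9 genes, where 34.9% of all genes tested were called, the response to morusinol differed between the lines by the test of the difference itself, which subtracts the SU-DHL-8 response from the Farage response on the log2 scale. The difference was 0.79 for GADD45A and 0.29 for PPM1D, and -1.12 for TP53INP1, -0.77 for ZMAT3 and -0.53 for MDM4.

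Among other genes named above, many responses also differed. Several of these genes were named for a large change in a line, which can favour such a difference. The difference was not called for GADD45B (0.15, limma adjusted p = 0.163) or TP53INP2 (0.32, limma adjusted p = 0.184). That of TP53INP2 was called after quantile normalization (0.67, limma adjusted p = 0.00728). Farage had the higher response for NINJ1 (1.91), SESN2 (1.48), RRM2 (1.09), CHEK2 (0.99), BBC3 (0.78), RRM1 (0.75), RAD23B (0.51), DDB2 (0.49) and SIRT1 (0.47). It had the lower response for DRAM1 (-0.98), TNFRSF10B (-0.74) and ATM (-0.51). RRM1 and RRM2 fell in both lines, so their positive values mean a smaller fall in Farage. The differences of 0.96 for HIPK2 and -1.30 for ZMAT1 come with a low level in one line. HIPK2 was at or near 0 in SU-DHL-8 and ZMAT1 at 0.157 and 0.219 FPKM in Farage. With a pseudocount of 1 the response at such levels is held near 0. Both differences kept their call in every alternative that tested these genes, that with a pseudocount of 0.1 included. GADD45G is likewise near 0 in SU-DHL-8, and its difference of 0.58 was not called with a pseudocount of 0.1 (0.23, limma adjusted p = 0.727) or after rescaling to TPM (0.53, limma adjusted p = 0.164). The CDKN1A difference of 0.53 (limma adjusted p = 0.0369) was not called with no filter (limma adjusted p = 0.086), nor in 8 of the 12 fits that each left out 1 library, namely 1 of the 6 Farage libraries each, or SU-DHL-8 control replicate 1 or 3, where limma adjusted p was 0.0542 to 0.0788.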

How the results depend on the processing

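No value of the 9 genes changed direction while called under any alternative. In all, 595 values kept their call or lack of one, 15 gained a call and 10 lost one. The genes that gained or lost a call are named with their values in the report. Some differences not called in the main fit crossed 0 over the alternatives. These were PPM1D in SU-DHL-8 (-0.12 to 0.03) and between treated groups (-0.05 to 0.25), FDXR between controls (-0.09 to 0.23) and XPC between treated groups (-0.23 to 0.04). Among values of the other named genes, 758 kept their call, 1 gained one and 21 lost one. The number of the 9 genes called for the difference between responses, 5, ranged from 5 to 8 when 1 library was left out; it ranged from 5 to 7 for SU-DHL-8, 6 to 7 for Farage, 8 to 8 between controls and 5 to 7 between treated groups. With the filter of 5 FPKM, which tests fewer genes, 7043 rather than 11271 genes were called between controls and 7033 rather than 11441 between treated groups. Rescaling to TPM, in which 22986 genes passed the filter, moved the share of calls that were higher. It rose from 49.6% to 60.2% for the difference between responses, from 53.8% to 62.1% between controls and from 50.7% to 62.4% between treated groups (62.5%, 59.3% and 61.9% over the 17574 genes). For morusinol against control it fell from 53.7% to 46.4% in SU-DHL-8 (44.2% over the 17574 genes) and went from 50.9% to 51.8% in Farage (52.7%). With quantile normalization the share was 42.5% between controls, 44.4% between treated groups and 55.1% for the difference between responses. It was then 48.4% for SU-DHL-8 and 53.5% for Farage. Control and morusinol libraries of a line with the same number showed no shared deviation (correlations across genes of -0.0788 to 0.0331). Those with different numbers had correlations of -0.0957 to 0.115. Pairing across the lines was not compared in this way. With the replicate block, 7935, 7287, 5786, 11145 and 11330 genes were called for SU-DHL-8, Farage, the difference between responses, the controls and the treated groups. The counts of the 9 genes called with the block were 6, 6, 5, 8 and 6, as without it. Precision is limited by 3 libraries a group and by few estimated fragments for some values. These include TP53INP1 in SU-DHL-8 control (48.3 to 70.4) and FDXR in the shallow SU-DHL-8 morusinol replicate 2 (56).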
